A study of Mus musculus with 17 samples.

Results

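Contacts that the mouse α-globin locus made far along its own chromosome were described in erythroid cells from Capture-C libraries. Capture-C digests crosslinked chromatin (here with DpnII, which cuts at GATC), ligates fragments that lay close together, and enriches for ligations to chosen bait fragments, the viewpoints. The regions described are DpnII fragments of chromosome 11 (mm9) with a midpoint under 31150000 or over 33150000, that is, about 1 Mb or more from the locus on either side. Every α-globin viewpoint entered except the combined one, and counts were summed over viewpoints within a library. These limits were met by 89206 of the 93499 chromosome 11 fragments with a count in any of the 17 libraries, or 30.7% of the 290698 DpnII sites of that territory. Counts were also summed in 118 bins of 1 Mb, of which 117 had at least 0.5 Mb of assembled sequence and were described, 28 on the centromeric side (upstream here) and 89 on the telomeric side (downstream). Values are given per 100000 chromosome 11 interactions outside the viewpoints' exclusion zones.

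The series asked how deleted CTCF sites and inserted α-globin fragments alter contacts of this locus. Primary Ter119+ erythroid cells were selected on magnetic beads from spleens of adult, phenylhydrazine-treated mice that were either WT (n = 3) or homozygous for the label Dt1t24448 [CTCFQuaddel] (QuadDel, n = 3), which lacks the CTCF sites HS+44 and HS+48 with the sequence between them, and θ1 and θ2. CD71+ erythroid cells were made in vitro from mouse embryonic stem cells through embryoid bodies, and all carried an Hba-a1-YFP fusion on the one allele that still had α-globin, the other allele being deleted for the locus. They were the parental line without an insert (WT αYFP, n = 3), a line with an insert of the α-globin promoter alone (αPonly, n = 4), and a line whose insert holds the gene body as well (αP+G, n = 4), both at a site that lies between the genes and their enhancers. Replicates were biological replicates in Ter119+ cells and separate differentiations in CD71+ cells, and the number of clones behind a CD71+ genotype was not given for this assay. CD71+ cells made in this way resemble primitive erythroblasts, whereas phenylhydrazine spleens hold definitive ones.

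In Ter119+ libraries 6 viewpoints were read: HS39 and HS38 at the upstream CTCF boundary, the enhancers R1 and R2, and the α-globin genes Hba-1 and Hba-2. The latter are near-identical copies, so that reads can be shared between them and their values are uncertain as separate measurements. A shared read may then enter the summed counts from both viewpoints, which would give the genes more weight in the Ter119+ sums. How many reads were shared was not tested. In CD71+ libraries the viewpoints were HS38, R1 and R2. The names HS38 and HS39 are used as deposited, and their positions look exchanged relative to the study's naming of the sites. No test was made between Ter119+ and CD71+ libraries, which differed in viewpoints, zones and cells. Total interactions over all viewpoints ranged from 82509 to 379336 a library, and those in the far territory from 27341 to 42633 in Ter119+ and from 5471 to 13704 in CD71+ libraries. Of the fragments listed there in a library, 58.0 to 82.1% had a single count.

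As background, a locus contacts the rest of its chromosome at a frequency that falls with distance, and beyond the neighbourhood of a gene contacts are rarely set by a specific loop. At megabase range chromatin separates into an active, gene-dense compartment and an inactive, gene-poor one, and a locus tends to meet regions of its own compartment. The α-globin genes lie in a gene-dense region, are among the most transcribed genes of erythroid cells, and have long been studied for their meetings with other active erythroid genes. CTCF and cohesin shape loops and domains near a locus, which is the scale at which these edits were made.

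The far fragments with most counts show what a single member looks like. Chosen by their counts over the unedited libraries of a capture, they lay mostly 1.3 to 1.5 Mb upstream in Asb3 and Psme4, and the 4 sequences printed here stand for that cluster and for the contacts furthest from it. They begin at the DpnII site that opens the fragment, run 5′ to 3′ on the + strand of mm9 for at most 300 bases, and carry the GATC site in capitals.

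Asb3 intron, chr11:30897199-30897498: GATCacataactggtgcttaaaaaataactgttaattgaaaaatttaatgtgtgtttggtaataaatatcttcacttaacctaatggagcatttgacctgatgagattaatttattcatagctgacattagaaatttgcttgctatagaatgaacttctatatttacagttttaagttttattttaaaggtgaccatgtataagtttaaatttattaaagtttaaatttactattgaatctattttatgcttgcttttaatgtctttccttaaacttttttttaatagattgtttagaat

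Sertad2 intron, chr11:20532753-20533052: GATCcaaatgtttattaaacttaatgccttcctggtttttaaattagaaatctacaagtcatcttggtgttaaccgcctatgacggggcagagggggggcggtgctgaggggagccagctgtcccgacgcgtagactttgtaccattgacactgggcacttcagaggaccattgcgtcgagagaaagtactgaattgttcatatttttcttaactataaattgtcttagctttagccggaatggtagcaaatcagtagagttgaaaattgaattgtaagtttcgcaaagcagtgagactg

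Psme4 intron, chr11:30682184-30682483: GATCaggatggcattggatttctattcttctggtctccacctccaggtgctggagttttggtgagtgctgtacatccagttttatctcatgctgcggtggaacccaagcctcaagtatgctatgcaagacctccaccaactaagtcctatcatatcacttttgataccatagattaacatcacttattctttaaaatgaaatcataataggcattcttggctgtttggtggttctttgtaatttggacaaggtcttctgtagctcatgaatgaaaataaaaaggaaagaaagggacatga

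G3bp1 intron, chr11:55284738-55285037: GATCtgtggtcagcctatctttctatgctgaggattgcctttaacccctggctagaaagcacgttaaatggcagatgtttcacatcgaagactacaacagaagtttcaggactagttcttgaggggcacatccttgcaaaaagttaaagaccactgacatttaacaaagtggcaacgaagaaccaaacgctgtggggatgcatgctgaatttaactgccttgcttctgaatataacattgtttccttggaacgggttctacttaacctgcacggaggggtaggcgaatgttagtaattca

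The Asb3 fragment, which lay in an intron of a gene for an ankyrin-repeat ubiquitin-ligase adaptor, had 8, 13 and 9 counts in WT and 6, 7 and 7 in QuadDel. The Sertad2 fragment, in a transcriptional co-regulator gene 11.6 Mb upstream, had 12, 5 and 8 counts in WT and 13, 4 and 4 in QuadDel. Both were read from all 6 viewpoints, and in the Sertad2 fragment the groups overlapped. The Psme4 fragment, in the gene of a proteasome activator, had 4, 8 and 7 counts in the WT αYFP libraries. With the promoter insert its counts were 5, 3, 10 and 2, and with the insert of promoter and gene they were 1, 0, 2 and 5, so that all groups overlapped. The G3bp1 fragment, in a stress-granule protein gene 23.1 Mb downstream, had 11, 6 and 6 counts in WT αYFP, 0 to 1 in the αPonly libraries and 0 to 2 in the αP+G libraries, from 2 of the 3 viewpoints. These fragments were picked for high counts in the unedited cells, so lower counts elsewhere are in part fixed by the choice, and no test was made. Some high counts came from 1 library: a fragment in a Psme4 exon had 1, 3 and 21 counts in WT, and an intergenic fragment 12.0 Mb downstream had 2, 14 and 1 in WT αYFP. Single fragments therefore carry little on their own, and bins are used from here on.

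Between 23.5 and 28.7% of chromosome 11 interactions fell in the far territory, and the edits did not shift that share beyond the spread between libraries. The far share was 26.4, 27.3 and 27.6% in WT (27.1 ± 0.629%, SD, n = 3) and 28.7, 27.6 and 25.6% in QuadDel (27.3 ± 1.55%, n = 3). The QuadDel values enclosed those of WT, with a difference of 0.221 percentage points (exact two-sided permutation test p = 0.8, adjusted p = 0.8 over 4 comparisons; the smallest p for 3 against 3 is 0.1). In CD71+ cells it was 25.6, 26.3 and 24.1% in WT αYFP (25.3 ± 1.08%, n = 3), 24.2, 24.7, 24.3 and 24.3% with the promoter insert (αPonly, 24.4 ± 0.241%, n = 4), and 25.2, 25.1, 23.5 and 24.2% with promoter and gene (αP+G, 24.5 ± 0.824%, n = 4). The groups overlapped in each comparison. The difference was -0.981 points for αPonly against WT αYFP (exact permutation p = 0.2, adjusted p = 0.571), -0.862 for αP+G against WT αYFP (exact p = 0.286, adjusted p = 0.571) and 0.119 for αP+G against αPonly (exact p = 0.8). In αPonly replicate 2, the library with fewest interactions, the Wilson 95% interval of the share was 24.2 to 25.3%, which covers counting error only.

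Interactions with other chromosomes give a level to set beside these contacts. They made up 28.8, 26.3 and 22.9% of the α-globin interactions in the 3 WT libraries and 23.9 ± 1.46% in QuadDel (n = 3). Per Mb of assembled sequence, the far territory of chromosome 11 drew 8.91, 10.9 and 13.7 times as many interactions as other chromosomes in WT, and 11.4 ± 0.592 times in WT αYFP (n = 3). Of the 117 bins, 1 in WT, 2 in αPonly and 1 in αP+G lay under the level of other chromosomes in every library of the group, and 0 did in QuadDel and WT αYFP. Beyond 10 Mb from the locus the share of chromosome 11 interactions was still 21.2 ± 0.148% in WT, 20.8 ± 1.59% in QuadDel and 17.4 ± 0.736% in WT αYFP. With the inserts it was 16.1 ± 0.661% (αPonly) and 16.8 ± 0.725% (αP+G).

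The enhancers sent a larger share of their contacts far along the chromosome than the genes did. In WT the far share was 32.0 ± 0.948% from R1 and 32.1 ± 0.631% from R2, against 23.0 ± 1.23% from Hba-1 and 23.4 ± 1.13% from Hba-2 (SD, n = 3). In QuadDel it was 32.0 ± 1.26% from R1, 30.2 ± 1.43% from R2, 24.8 ± 1.51% from Hba-1 and 25.2 ± 1.57% from Hba-2 (n = 3). R1 lay 8.14 points above Hba-1 on average over the 6 libraries (SD of the paired differences 1.29), in each of them. Among the boundary viewpoints, HS38 gave 30.8 ± 0.386% and HS39 25.2 ± 0.554% in WT, a paired difference of -5.69 points for HS39 (SD 0.401) over the 6 libraries.

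Of the 15 pairs of Ter119+ viewpoints, 12 differed in the same direction in all 6 libraries (exact sign-flip permutation p = 0.03125, the smallest that 6 libraries allow, adjusted p = 0.0391 over 15 pairs). The exceptions were R1 against R2 (0.865 points, adjusted p = 0.180), HS39 against Hba-1 (0.536, adjusted p = 0.603) and HS39 against Hba-2. For HS39 the pooled mean hides a split by genotype. HS39 lay above Hba-1 and Hba-2 in every WT library (means 25.2 against 23.0 and 23.4%). It lay below both in every QuadDel library (23.6 against 24.8 and 25.2%). That split was not tested. Hba-1 and Hba-2 differed by -0.402 points on average (SD 0.114), although shared reads limit that pair. The share depends on how much of the viewpoint's own surroundings is counted: with each zone widened by 5 kb, HS39 gave 35.7% and HS38 35.3% over the 6 libraries, and Hba-1 gave 29.4%. HS39 then lay above Hba-1 in 6 of 6 libraries (6.30 points, exact sign-flip permutation adjusted p = 0.0391), against 3 of 6, those of WT, with the zones as used. The widened zones also turned R1 against R2 to -2.07 points, below 0 in each library (exact sign-flip permutation adjusted p = 0.0391). Other pairs no longer passed with them. HS39 against HS38 went from -5.69 to 0.394 points (exact sign-flip permutation adjusted p = 0.368). HS39 against R1 stood at -0.704 (adjusted p = 0.438) and HS38 against R1 at -1.10 (adjusted p = 0.144). In CD71+ cells, HS38 sent fewer contacts far than R1 in 10 of 11 libraries (-1.45 points, SD 0.851) and fewer than R2 in 11 of 11 (-2.15, SD 0.826; exact sign-flip permutation adjusted p = 0.00293 over 3 pairs for both). R1 and R2 differed by -0.706 points, which missed the threshold (exact p = 0.0566). R1 lay below R2 in 11 of 11 libraries with zones widened by 5 kb (-4.44 points, exact sign-flip permutation adjusted p = 0.00146) and beyond 10 Mb (-1.16 points, adjusted p = 0.000977).

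**Figure D1:**
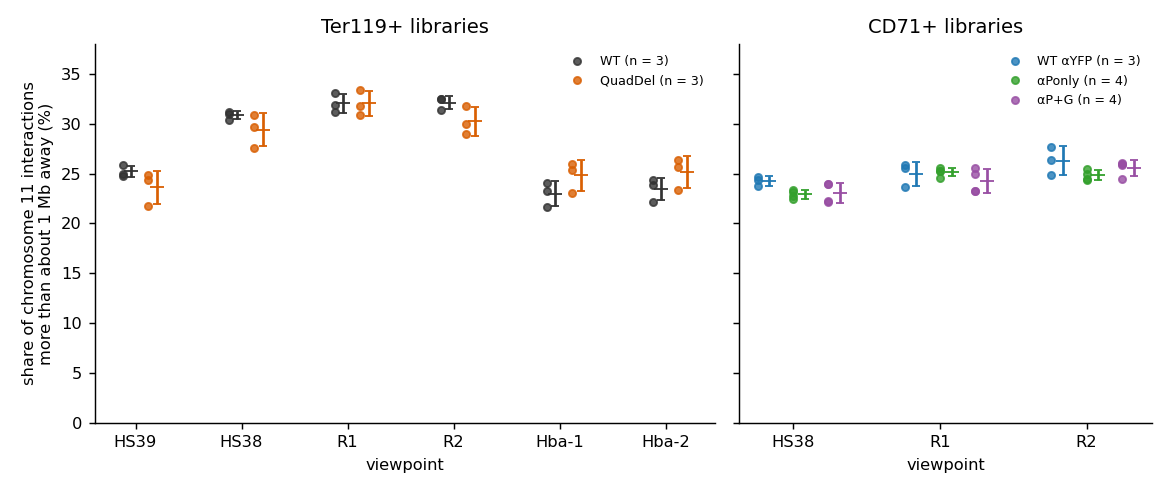
Share of chromosome 11 interactions outside the exclusion zone that fell in the far territory (y axis, %, from 0), by viewpoint (x axis) and group, with points for libraries and mean ± SD. In Ter119+ cells R1 and R2 sit near 30 to 32% and Hba-1 and Hba-2 near 23 to 25%, with WT and QuadDel side by side at every viewpoint.

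None of the 15 comparisons between groups at a single viewpoint passed the test. The lowest exact permutation p belonged to HS38 in αPonly against WT αYFP (-1.33 points, p = 0.0286, the smallest for 4 against 3, adjusted p = 0.429). For reference, control viewpoints on other chromosomes had a far share on their own chromosome, measured beyond the same distance. Hbb-b1 gave 29.8 ± 1.28% in WT and 31.4 ± 1.11% in QuadDel, and Hbb-b2 30.7 ± 0.496% and 30.1 ± 1.65%. Slc25a37 gave 33.2 ± 0.536% in WT and 28.1 ± 1.32% in QuadDel, without overlap (32.6 to 33.7% against 26.9 to 29.5%). The widest gap of QuadDel to WT at an α-globin viewpoint was -1.87 points, at R2. It was -1.57 at HS39, -1.45 at HS38 and -0.0103 at R1, but 1.83 at Hba-1 and 1.72 at Hba-2. The summed difference of 0.221 points therefore joins viewpoints of opposite sign. Slc25a37 counts also differed, with 9736 to 13792 in WT and 18036 to 24097 in QuadDel. The cause was not tested.

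Contacts fell with distance at first and then did not fall evenly. In WT, interactions per Mb per 100000 dropped on the upstream side from 1481 ± 113 at 1.02 to 2 Mb to 578 ± 36.5 at 2 to 4 Mb and 154 ± 11.1 at 4 to 8 Mb (SD, n = 3). They then stood higher again, at 329 at 8 to 16 Mb and 243 at 16 to 29 Mb. On the downstream side they went from 455 ± 87.8 through 240 ± 42.7 to 102 ± 2.74 over the first windows, then stood at 216 at 8 to 16 Mb and 547 ± 24.9 at 16 to 29 Mb, and fell to 205 at 29 to 58 Mb and 59.1 beyond. So the downstream window 16 to 29 Mb away held more contacts per Mb than the window adjoining the excluded centre. In WT αYFP the same windows held 2026, 876, 146, 339 and 257 upstream, and 1027, 435, 127, 203, 359, 157 and 52.3 downstream. There the downstream peak at 16 to 29 Mb stayed under the level of the nearest window.

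**Figure D2:**
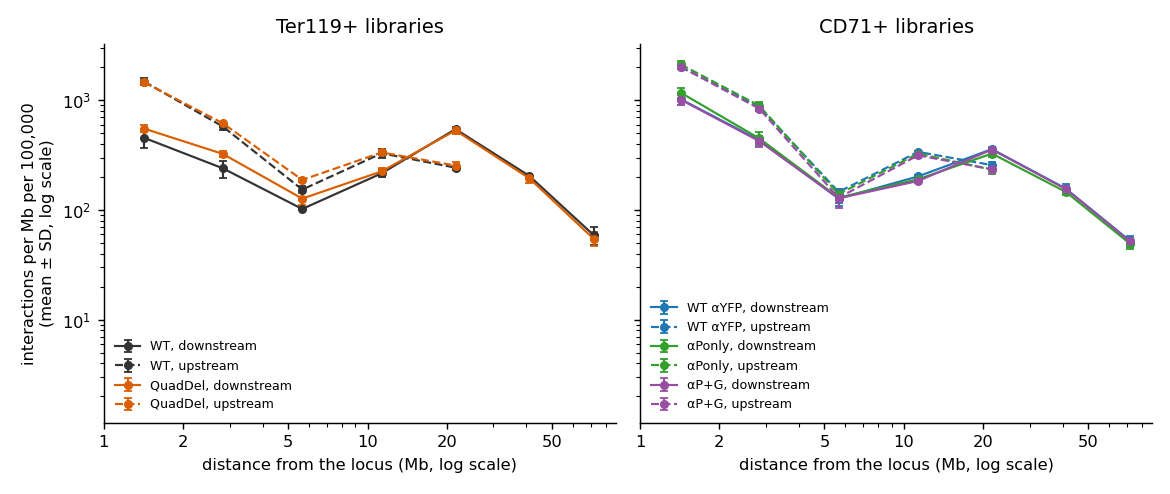
Interactions per Mb per 100000 chromosome 11 interactions (y axis, log scale) by distance from the locus in Mb (x axis, log scale), mean ± SD for each group, solid lines downstream and dashed lines upstream. All groups dip at 4 to 8 Mb and rise again, most at 16 to 29 Mb downstream, where WT reaches 547.

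Upstream and downstream differed near the locus. Within 2 Mb the upstream side drew more, with a log2 ratio of downstream over upstream of -1.56 in the 6 Ter119+ and -0.95 in the 11 CD71+ libraries. At 2 to 4 Mb it was -1.11 and -1.0, whereas at 16 to 29 Mb it was 1.12 and 0.53. For the Ter119+ libraries all 5 windows passed (exact sign-flip permutation, adjusted p = 0.0347), and for CD71+ libraries all but the window at 4 to 8 Mb (log2 ratio -0.10, exact p = 0.187; the others adjusted p = 0.00244). Summed over the matched windows out to 29 Mb, the log2 ratio was 0.16 ± 0.03 in Ter119+ cells (above 0 in 6 of 6 libraries, exact sign-flip p = 0.03125) and -0.25 ± 0.05 in CD71+ cells (below 0 in 11 of 11, exact p = 0.000977). Each is the smallest p its number of libraries allows. In Ter119+ cells the sum hides windows of opposite sign, and per listed DpnII fragment in place of per Mb its value fell to 0.04 (exact p = 0.0625).

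The slope of log10 interactions per Mb on log10 distance downstream was -0.15, -0.28 and -0.31 in WT and -0.32, -0.33 and -0.40 in QuadDel. Every QuadDel library was steeper than every WT library (difference -0.10, exact permutation p = 0.1, which 3 against 3 libraries cannot go below, adjusted p = 0.305), and with 1 library left out the difference was -0.129 to -0.0504, the smallest of these without WT replicate 1. The CD71+ means were -0.54 ± 0.01 (WT αYFP), -0.58 ± 0.05 (αPonly) and -0.53 ± 0.03 (αP+G), and no comparison passed. Upstream the WT and QuadDel means were both -0.61.

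Along the chromosome the contacts formed blocks. To see them apart from distance, each bin's interactions per Mb were divided by those of a smooth curve of distance fitted for each library and side, giving observed over expected (O/E). Over the 117 bins the mean O/E ran from 0.215 to 5.70 in WT and from 0.246 to 4.92 in WT αYFP. In WT 39 bins exceeded 1.5 and 27 were under 0.5, and in 109 of 117 bins all 3 libraries lay on the same side of 1. In QuadDel the same held for 107 bins, and in WT αYFP, αPonly and αP+G for 93, 89 and 90. The SD of log2 O/E over bins was 1.17 in WT, 1.21 in QuadDel and 0.99 in WT αYFP.

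**Figure D3:**
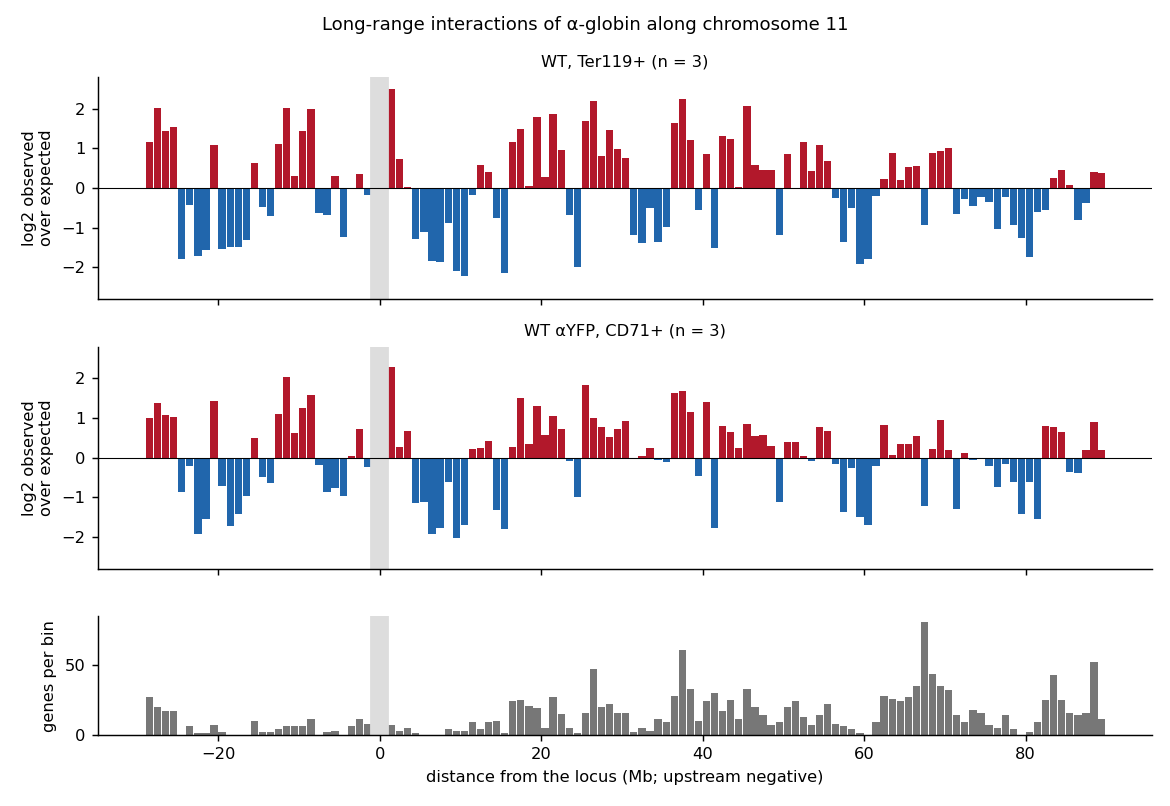
Log2 of observed over expected interactions in 1 Mb bins (bars, y axis) by distance from the α-globin locus in Mb (x axis) in WT Ter119+ and WT αYFP CD71+ cells, with protein-coding genes per bin in the lower panel and the excluded centre in grey. Bars above 0 lie in runs, mostly over the gene-dense stretches, and the O/E behind them spans 0.215 to 5.70 in WT.

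Several of the blocks with more contacts than expected in WT were gene-dense. The run chr11:48150001-55150000 (7 bins, 136 protein-coding genes) had a mean O/E of 2.34 and held 15.9% of all far interactions. The run chr11:57150001-63150000 (6 bins, 137 genes) had 2.68 and 12.2%, and chr11:68150001-71150000 (3 bins, 122 genes) had 3.39 and 5.67%. Upstream, chr11:3150001-7150000 (4 bins, 81 genes) had 2.96 and chr11:19150001-24150000 (5 bins, 33 genes) had 2.83, with 8.50% and 8.12% of far interactions. Between them lay quiet runs: chr11:36150001-44150000 (8 bins, 20 genes) had a mean O/E of 0.412 and chr11:12150001-16150000 (4 bins, 2 genes) of 0.366. Not every run followed this order. Next to the excluded centre, chr11:33150001-36150000 (3 bins, 15 genes) had a mean O/E of 2.79, and chr11:11150001-12150000 (1 bin, 7 genes) had 2.13, whereas the quiet run chr11:103150001-115150000 (12 bins, 123 genes) had 0.648. In WT αYFP the run chr11:48150001-55150000 was at 1.86 and chr11:57150001-63150000 at 2.04, and quiet bins from chr11:36150001 to 43150000 were at 0.382.

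Among single bins, the mean O/E in WT was above all others in chr11:33150001-34150000, at 5.70 ± 0.483 (SD, n = 3), where Ranbp17, of the nuclear transport receptor family, held 35.1% of the counts. This bin adjoins the excluded centre, where the fitted curve is least certain. Next came chr11:69150001-70150000, 37.5 Mb away, with 4.28, 4.78 and 5.09 in the WT libraries, 4.33, 4.00 and 4.69 in QuadDel and a WT αYFP mean of 3.22 ± 0.183. This bin holds 61 genes, and Dnahc2, an axonemal dynein gene, took only 5.39% of its counts. The bin chr11:77150001-78150000 (33 genes) stood high in the spleen cells and less so in the in vitro cells, with 4.22 ± 0.116 in WT and 1.82 ± 0.429 in WT αYFP. By contrast chr11:20150001-21150000, 11.5 Mb upstream and led by Sertad2, was alike in the means of both captures, at 4.05 ± 0.225 in WT and 4.08 ± 0.0568 in WT αYFP. The control viewpoints on other chromosomes also varied between bins. Divided by their signal in the same bin, O/E in WT was 11.5 in the Ranbp17 bin, 2.16 in the Dnahc2 bin and 1.64 in chr11:77150001-78150000. In the Sertad2 bin it was 4.21 in WT and 2.87 in WT αYFP, so the captures were less alike there after that division.

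The lowest bins in WT held 1 to 3 protein-coding genes each. The bin chr11:42150001-43150000, with the GABA-A receptor subunit gene Gabrb2, had O/E values of 0.230, 0.244 and 0.172. The bin of Sgcd, a sarcoglycan of the muscle membrane that held 59.5% of the counts of chr11:47150001-48150000, had 0.243, 0.216 and 0.225. The bin of the glutamate receptor gene Gria1, chr11:56150001-57150000, was at 0.250 ± 0.047 in WT and 0.503 in WT αYFP. The bin of the kinesin gene Kif2b, chr11:91150001-92150000, had 0.286, 0.226 and 0.283. Among the lowest bins of WT αYFP were that of Sgcd again, at 0.290, that of Abca13 (0.262), a lipid transporter gene, and the bins chr11:38150001-39150000 and chr11:39150001-40150000 without any protein-coding gene (0.262 and 0.292).

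Gene number and base composition moved with O/E. In the 39 bins with fewest genes (0 to 6) the median O/E was 0.428 in WT, in the middle 39 it was 1.05, and in the 39 with most genes (16 to 81) it was 1.84. Bins over 1 numbered 6, 21 and 34, and the median GC content was 39.6, 44.0 and 46.7%. In WT αYFP the medians were 0.593, 1.08 and 1.70. Across the 117 bins, which share libraries and are not independent, log2 O/E correlated with the number of genes at r = 0.500 in WT and 0.429 in WT αYFP, with GC content at 0.539 and 0.575, and with the number of DpnII sites at -0.041 and -0.076. It also correlated at 0.511 and 0.500 with the interactions of the 3 control viewpoints, on other chromosomes, in the same bins. With O/E divided by that control signal, its SD on the log2 scale was 0.963 in WT and 0.857 in WT αYFP. How far gene density, base composition or capture efficiency set the landscape was not tested.

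There were gene-rich exceptions. The bin chr11:99150001-100150000, which spans the keratin gene clusters, held 81 genes and had an O/E of 0.526 in WT. The bin chr11:73150001-74150000 held 30 genes, among them olfactory receptors, and had 0.352.

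The landscape was alike in groups of the same cells. Over the 117 bins the correlation of log2 O/E between single libraries of a group was 0.972 to 0.975 within WT and 0.967 to 0.976 within QuadDel. Within each of the CD71+ groups it lay between 0.862 and 0.918. The group means correlated at 0.988 for WT with QuadDel, 0.956 for WT αYFP with αPonly and 0.955 for WT αYFP with αP+G. Between WT and WT αYFP, which differ in cells, viewpoints and depth, it was 0.896 (Spearman's rho 0.895). These are descriptions over bins that share neighbours and depth.

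Windows of 100 kb on each side of a gene's midpoint were then read for gene lists. Over all 1622 genes of the far territory the median O/E was 1.61 in WT, with 68.7% above 1, and 1.51 in WT αYFP, with 70.4% above 1. Windows of neighbouring genes overlap, so members of a list are not independent.

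All 12 erythroid genes lay above 1 in WT, with a median of 3.45. Their median was 3.35 in QuadDel (12 of 12 above 1) and, in CD71+ cells, 1.57 in WT αYFP (10 of 12), 1.83 in αPonly (12) and 2.02 in αP+G (11). The erythroid list thus stood above the median of all far genes in the spleen cells, and near it in WT αYFP. It was not tested as a set.

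Around Ikzf1, the gene of the lymphoid and erythroid transcription factor Ikaros 20.5 Mb upstream, O/E was 5.40, 6.28 and 5.15 in WT, 6.38, 7.18 and 6.90 in QuadDel and 3.12, 3.25 and 3.31 in WT αYFP. All QuadDel libraries were above all WT libraries there, which was not tested. Among the 1 Mb bins the same held for 12 of 118 (10.2%). Around Bcl11a, which encodes a repressor of embryonic and fetal globin genes, it was 5.22, 5.51 and 5.50 in WT, 4.88, 5.47 and 5.72 in QuadDel and 2.04, 1.49 and 1.03 in WT αYFP. This window 8.14 Mb upstream was thus high in every spleen library, with QuadDel and WT overlapping, and near 1 to 2 in WT αYFP. Around Slc4a1, the gene of the red-cell anion exchanger band 3 at 70.1 Mb, it was 5.47, 5.15 and 5.87 in WT, 9.43, 9.03 and 5.82 in QuadDel and 0.97, 1.62 and 2.14 in WT αYFP. The window of its neighbour Slc25a39, a mitochondrial carrier gene, shares counts with it and had means of 4.95, 7.37 and 1.46. These windows hold few counts at such distance, 281 in WT and 25 in WT αYFP for Slc4a1, and the 1 Mb bin of Slc4a1 did not pass between QuadDel and WT (chr11:102150001-103150000, log2 fold change 0.30, SE 0.18, edgeR adjusted p = 0.521).

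Slc22a4, an organic cation and ergothioneine transporter gene, had 4.22, 4.41 and 4.95 in WT and 1.95, 2.45 and 2.20 in WT αYFP. Trim58, an erythroid ubiquitin ligase gene, had 4.02, 3.87 and 3.95 in WT and 2.90, 0.89 and 0.98 in WT αYFP, where 1 library carried the mean. The other members had lower means in WT: 2.95 for Specc1, 2.74 for Ube2o, a ubiquitin-conjugating enzyme of reticulocytes, and 2.26 for Alox15, a reticulocyte lipoxygenase. The cytokine signalling genes Stat5b, Stat5a and Grb2 had 1.79, 1.78 and 1.21.

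Genes of other blood lineages varied more. Of 18, 11 exceeded 1 in WT (median 1.40) and 13 in WT αYFP (median 1.55). The T helper cytokine genes Il4, Il13 and Il5, 21 Mb downstream, had 4.92 ± 0.395, 4.17 ± 0.372 and 3.18 ± 0.086 in WT, whereas Il3 and Csf2, within 1 Mb of them, had 0.966 and 0.897. The macrophage gene Cd68 had 5.40 ± 1.15, the platelet genes Gp1ba and Itga2b 4.29 and 3.73, and the integrin gene Itgae 2.79. At the other end, the chemokine gene Ccl2 had 0.367. Ebf1, a B-cell transcription factor gene 12.5 Mb downstream, had 0.62, 0.33 and 0.29 in WT, 0.33, 0.50 and 0.26 in QuadDel and 1.27, 1.28 and 1.09 in WT αYFP. Its window was under 1 in every spleen library and above 1 in every WT αYFP library.

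Housekeeping genes lay mostly above 1, in 25 of 28 windows in WT (median 2.07) and 23 in WT αYFP (2.17). The windows of Eif5a, a translation factor gene, had 7.65, 8.65 and 9.35 in WT and 3.87, 4.79 and 4.71 in WT αYFP. Ppia, which encodes a prolyl isomerase, had 6.53, 6.22 and 7.14 in WT and 5.07, 4.01 and 4.88 in WT αYFP. The window of Cd68 lies close to those of Eif4a1 (5.46) and Polr2a (5.10), so these values are not separate observations.

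The lists of neuronal, Hoxb, skeletal muscle myosin and keratin genes had medians under 1 in WT. Of 16 neuronal genes 3 exceeded 1 in WT (median 0.586) and 8 in WT αYFP (0.918). The GABA-A receptor genes Gabra6 and Gabrb2, whose windows overlap, had 0.259 and 0.171 in WT. The exceptions were the neurofilament gene Nefh (4.20, 4.05 and 5.25), Cntnap1 (2.45) and Ddc (2.30), and Ddc lies close to Ikzf1. All 10 Hoxb genes, whose windows largely coincide, were under 1 in WT (median 0.415) and in WT αYFP (0.665). The 6 skeletal muscle myosin genes were under 1 in WT (0.343 to 0.857), while 1 exceeded 1 in QuadDel (up to 1.45) and 2 did in WT αYFP (median 0.804, up to 1.79). Of the 49 keratin and keratin-associated genes 3 exceeded 1 in WT, Krt42, Krt17 and Krt16, with a list median of 0.496, and none did in WT αYFP (0.471).

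Olfactory receptor genes did not behave as 1 class. Of 81 windows 34 exceeded 1 in WT and 35 in WT αYFP, and the values followed the position of the cluster. All 23 genes in the cluster chr11:58268417-59427727, which also holds Trim58, were between 1.24 and 6.06 in WT (median 3.23), and their median was 2.96 in QuadDel and 1.49 in WT αYFP. All 29 genes in the cluster chr11:73164341-74179111 were between 0.204 and 0.586 in WT (median 0.368), with medians of 0.319 in QuadDel and 0.349 in WT αYFP. The smaller clusters had WT medians of 0.781 (19 genes), 0.321 (5), 2.96 (2) and 0.800 (3).

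**Figure D4:**
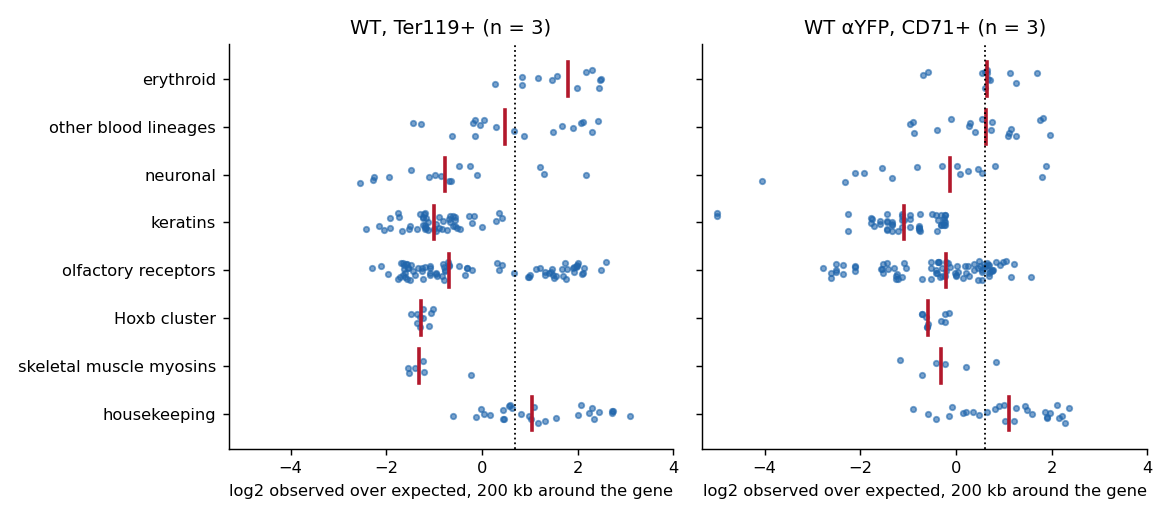
Log2 observed over expected interactions in windows of 100 kb on each side of each listed gene (x axis), by gene list (y axis), in WT Ter119+ and WT αYFP CD71+ cells, one point a gene, with the list median in red and the median of all far genes dotted. In WT the 12 erythroid genes sit above 0, while Hoxb and myosin genes sit under it, and 2 keratin-associated windows with 0 counts in WT αYFP are drawn at -5.

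Few megabase bins passed the threshold after loss of the CTCF sites. Of 118 bins, 2 passed between QuadDel and WT, both higher in QuadDel (1.69% of the bins tested, edgeR quasi-likelihood test, Benjamini-Hochberg adjusted p under 0.05), and none was lower (0%). At an unadjusted p under 0.05 there were 11 bins. The median SE of a log2 fold change was 0.18 (95% half-width 0.36), so smaller changes could be missed.

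The first lay 3.48 Mb downstream, chr11:35150001-36150000, and the guidance-ligand gene Slit3 held 31.8% of its counts. It had 175.6, 262.4 and 232.7 interactions per 100000 in WT (224 ± 44.1, SD, n = 3) and 298.9, 305.5 and 329.1 in QuadDel (311 ± 15.9). Every QuadDel library was above every WT library, the log2 fold change being 0.47 with an SE of 0.13 (edgeR adjusted p = 0.0335). The second lay 4.52 Mb upstream, chr11:27150001-28150000, and held no protein-coding gene. It had 99.4, 122.4 and 123.4 per 100000 in WT (115 ± 13.6) and 193.7, 175.7 and 150.9 in QuadDel (173 ± 21.5), again without overlap, the log2 fold change being 0.59 with an SE of 0.17 (edgeR adjusted p = 0.0426).

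Both calls were lost when single libraries were left out. Without WT replicate 1 neither passed (log2 fold changes 0.33 and 0.50, edgeR adjusted p = 0.594 for both). The Slit3 bin passed only without QuadDel replicate 1 or WT replicate 2, and the second bin only without QuadDel replicate 3. WT replicate 1 was also the WT library with most interactions on other chromosomes, 28.8%. With the total of the far bins as library size both missed the threshold (log2 fold changes 0.46 and 0.58, edgeR adjusted p = 0.0595). Fragments within chr11:32221719-32224308 that kept under 10% of their WT counts in QuadDel held 0.298% of the WT total, so their absence from the QuadDel total moves a value by 0.0043 on the log2 scale.

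Both bins were also fitted for each viewpoint alone, and they passed from the gene viewpoints. In the second bin the log2 fold change was 1.14 from Hba-1 (SE 0.26, edgeR adjusted p = 0.00142) and 0.94 from Hba-2 (SE 0.25, adjusted p = 0.00648), against 0.89 from R1 (SE 0.30, adjusted p = 0.238), 0.13 from R2, -0.11 from HS38 and 0.11 from HS39. In the Slit3 bin it was 0.74 from Hba-1 (SE 0.21, edgeR adjusted p = 0.0230) and 0.77 from Hba-2 (SE 0.20, adjusted p = 0.00648), and 0.08 to 0.46 from the others, which did not pass. Hba-1 and Hba-2 can share reads and so are not separate evidence, and the difference between viewpoints was not tested. Shared reads may also count from both in the summed bins, whose counts and SE do not allow for it. The control viewpoints had 9 interactions in the Slit3 bin in QuadDel against 21 in WT, and 15 in both groups in the second.

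Bins near the locus leaned the same way. In 12 of 118 bins every QuadDel library was above every WT library (10.2%), and in 5 every one was below (4.24%). Within 8 Mb of the locus, a range chosen after the values were seen, the log2 fold change was positive in 6 of 7 downstream bins (median 0.39, 5 without overlap) and in 6 of 7 upstream bins (median 0.24, 2 without overlap), beside 55 of 118 and a median of -0.02 over all bins. The bin between the Slit3 bin and the one at the edge of the centre, chr11:34150001-35150000, had 0.39 (SE 0.12, edgeR adjusted p = 0.0716). In distance windows QuadDel was above every WT library downstream at 1.02 to 2 Mb (1.21-fold), 2 to 4 Mb (1.35-fold) and 4 to 8 Mb (1.24-fold), and upstream at 2 to 4 and 4 to 8 Mb. Each gave exact permutation p = 0.1, the smallest for 3 against 3, and adjusted p = 0.4. These window tests were added after seeing the values, and they use the same counts as the bins.

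Some bins of high O/E lay lower in QuadDel without passing. In chr11:69150001-70150000 WT had 689.6, 719.6 and 723 interactions per 100000 and QuadDel had 661, 577 and 603, all below WT (log2 fold change -0.21, SE 0.09, edgeR adjusted p = 0.306). In chr11:77150001-78150000 WT had 547, 496 and 475 and QuadDel had 447, 435 and 391, again all below (-0.25, SE 0.10, edgeR adjusted p = 0.233).

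**Figure D5:**
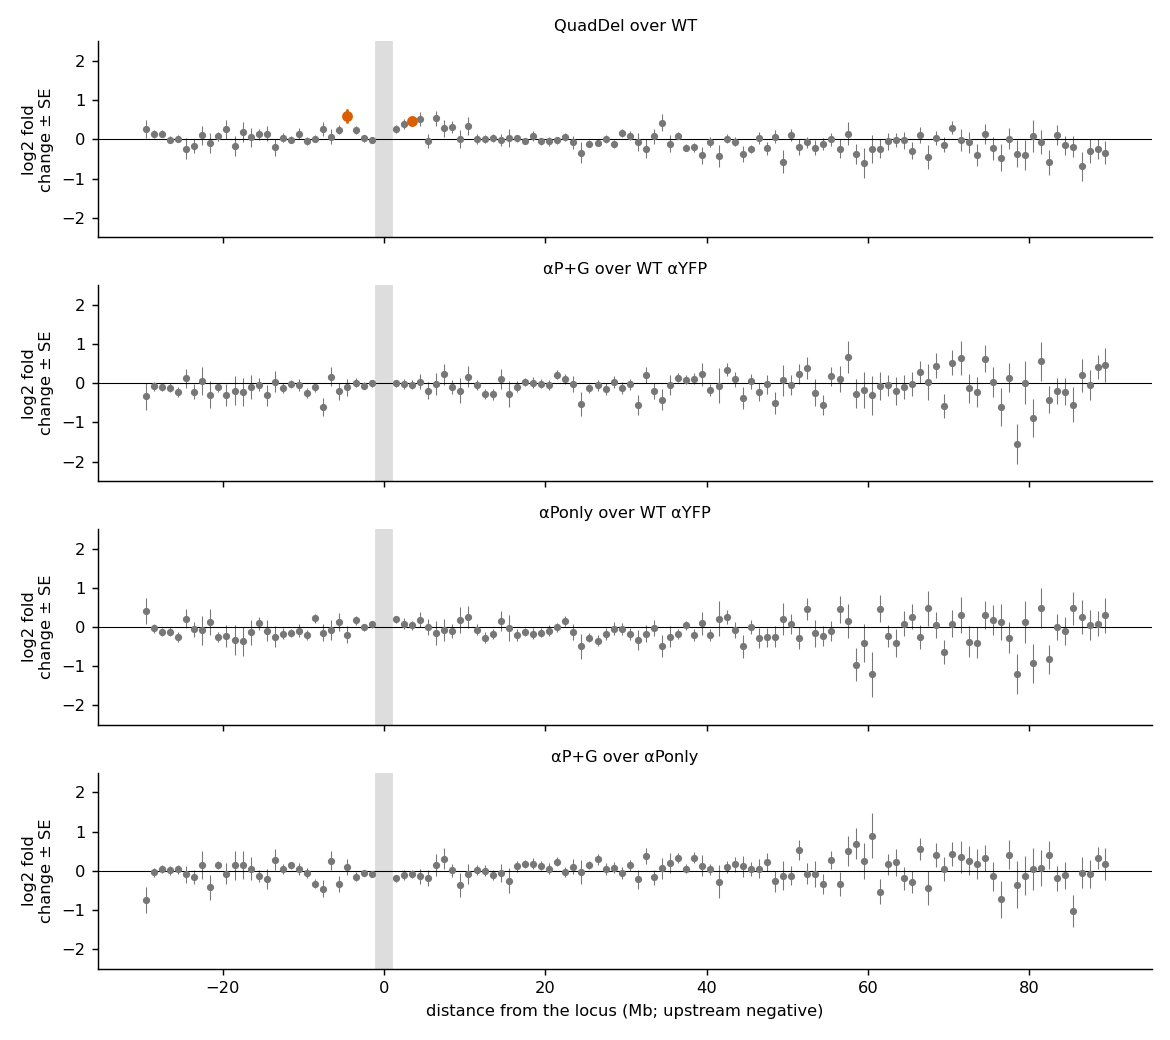
Log2 fold change ± SE of each 1 Mb bin (y axis) by distance from the locus in Mb (x axis) in the 4 comparisons, with the 2 bins that passed in orange. Both lie within 5 Mb of the locus in the QuadDel panel, at 0.47 and 0.59, and the 3 CD71+ panels have none.

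The inserted fragments changed no far bin beyond the threshold. None of 118 bins passed in αP+G against WT αYFP, in αPonly against WT αYFP or in αP+G against αPonly (0% each, edgeR quasi-likelihood test), with 8, 10 and 10 bins at an unadjusted p under 0.05 and 0 by DESeq2 as well. The depth limits these comparisons: the median SE of a log2 fold change was 0.26, 0.26 and 0.25. Both comparisons with WT αYFP share its 3 libraries.

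In αP+G against WT αYFP the smallest p belonged to chr11:110150001-111150000, whose leading gene Kcnj16 encodes a potassium channel. It had 31.6, 40.2 and 19.5 interactions per 100000 in WT αYFP and 5.1, 8.1, 9.9 and 17.3 in αP+G, on counts of 9, 21 and 10 against 2, 3, 4 and 7 (log2 fold change -1.55, SE 0.52, edgeR adjusted p = 0.341). All αP+G libraries were below all of WT αYFP, but the counts are few. Next was the gene-free bin chr11:24150001-25150000, with 154.6, 178.2 and 171.9 in WT αYFP and 100.1, 129.2, 79.2 and 136.1 in αP+G (log2 fold change -0.61, SE 0.22, edgeR adjusted p = 0.375). From HS38 alone this bin had -1.22 (SE 0.32, edgeR adjusted p = 0.0245), the only 1 of 93 bins to pass there. It had -0.52 from R1 (SE 0.42, edgeR adjusted p = 0.923) and -0.17 from R2 (SE 0.34, adjusted p = 0.934). The bin was looked at for its small p, and the difference between viewpoints was not tested. Without overlap, 1 bin was above WT αYFP in αP+G (0.847%) and 6 were below (5.08%).

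In αPonly against WT αYFP the second smallest p belonged to chr11:57150001-58150000. In this bin, led by the glycosyltransferase gene Galnt10, WT αYFP had 667.7, 592.0 and 654.5 interactions per 100000 and αPonly 581.6, 447.2, 508.9 and 561.7 (edgeR adjusted p = 0.514, log2 fold change -0.27 with an SE of 0.11). Here the groups did not overlap. Over all bins 7 were below WT αYFP in every αPonly library (5.93%) and none above (0%).

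Between the inserts, chr11:23150001-24150000, where the deubiquitinase gene Usp34 held 29.8% of the counts, had 626.4, 496.9, 640.3 and 710.8 in the αPonly libraries, against 495.4, 476.5, 520.0 and 500.0 in those of αP+G (log2 fold change -0.33, SE 0.10, edgeR adjusted p = 0.219). The αPonly replicate 2 lay within the αP+G values, and without it this bin passed (-0.40, edgeR adjusted p = 0.0263). The bin of the non-muscle myosin gene Myh10, chr11:68150001-69150000, had 0.33 (SE 0.12, edgeR adjusted p = 0.343). Without overlap, 1 bin was higher in αP+G (0.847%) and 2 were lower (1.69%). In distance windows, αP+G was at 184 against 203 per Mb in WT αYFP at 8 to 16 Mb downstream (exact permutation p = 0.0571, adjusted p = 0.4), and αPonly at 327 against 339 upstream in the same range (exact permutation p = 0.0286, the smallest for 4 against 3, adjusted p = 0.4).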

How the data were processed

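The authors digested 3C libraries with DpnII, enriched them with biotinylated oligonucleotides, trimmed adaptors (Trim Galore), merged read pairs (FLASH), cut reads in silico at DpnII sites, aligned them with Bowtie to mm9 or a custom mm9 and removed PCR duplicates. They deposited raw counts of unique interactions for each viewpoint and DpnII fragment. Exclusion zones were the viewpoint fragment in the Ter119+ list and reached 1000 bp further in the CD71+ list. In every library all listed fragments lay on the DpnII grid of the mm9 sequence, which also gave GC content and fragment sequences. Genes came from an older annotation of that build, so some symbols are old.

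Far fragments were summed over viewpoints in 1 Mb bins and tested with edgeR 4.0.16 (quasi-likelihood, R 4.3.3), with the chromosome 11 total outside the zones as library size, no further normalisation and a mean count of at least 5. Each capture was fitted on its own, so that the 3 CD71+ groups share an estimate of the spread. Shares, slopes and ratios were compared by exact permutation tests (scipy 1.17.1). The expected curve was a second-degree polynomial of log interactions, with 0.5 added, on log distance. A self-test on simulated counts was run. The study tested counts with DESeq2, run here as an alternative (1.42.0). Other alternatives changed size factors, filters, threshold, bins, viewpoints, zones, the replicate block and libraries.

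Named bins were the up to 5 with smallest p past the threshold in each direction, or the 2 with smallest p where none passed, and the 5 highest and 5 lowest by O/E in each unedited group. Named fragments were the 6 with most counts in the unedited libraries, named genes the members of the lists and the leading gene of a named bin. A gene beyond this rule, 2 gene-rich low bins, the 1 Mb bin of Slc4a1 and the neighbour of the Slit3 bin were added after values were seen. Some named genes and bins are not reported here. The regions and lists were chosen with earlier results of these data known. Replicate numbers did not pair libraries: deviations of same-numbered libraries from their group means correlated at -0.075 to 0.159. Replicates differed by more than counting noise (chi-square per degree of freedom 1.57 to 5.59 over 21 pairs), so none was a repeated library.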

Additional observations from a re-analysis of the deposited data

Results flagged for a closer look

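Of 54 sets of values within a group of 4 libraries that were examined, 2 had a library far from the others (3.70%), and chance gives about 1 in 20. The share of R2 interactions in the far territory was 24.4% in αP+G replicate 3, while the other αP+G libraries had 25.8 to 26.1%. The bin chr11:77150001-78150000 had 208 interactions per 100000 in αP+G replicate 1, while the others had 171 to 175.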

How the results depend on the processing

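Bins that passed between QuadDel and WT numbered 4 with TMM factors and 5 with DESeq2 size factors, all higher in QuadDel and within 7 Mb of the locus, and 0 with the total of the far bins as library size, at an adjusted p under 0.01, from R2 alone or with zones widened by 5 kb. DESeq2's own test gave 2. With 500 kb bins, calls between QuadDel and WT went both ways. The bin from chr11:27150001 was higher in QuadDel (log2 fold change 0.94) and that from chr11:69650001 lower (-0.40, edgeR adjusted p = 0.0330 for both). No 500 kb bin within the Slit3 bin passed. Leaving out 1 library gave 0 to 1. Between αP+G and αPonly 1 bin passed with 500 kb bins and 1 with 2 Mb bins, both lower in αP+G, and 0 to 1 when 1 library was left out. Replicate numbers did not pair libraries, and the replicate block left the counts at 2, 0, 0 and 0.

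The QuadDel to WT difference in far share turned negative as a mean of single viewpoints (-0.223), with zones widened by 5 kb (-0.507) and beyond 10 Mb (-0.383), and ran from -0.470 to 1.06 when 1 library was left out. Left out in the same way, it ran from -0.119 to 0.456 for αP+G against αPonly, -1.58 to -0.527 for αPonly against WT αYFP and -1.46 to -0.408 for αP+G against WT αYFP. The slope difference was 0.0097 upstream for QuadDel. For αP+G against WT αYFP it was -0.032 upstream and -0.021 from R2 alone, and -0.0060 to 0.014 with 1 library left out. None of these passed a test in the first place.

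The downstream over upstream log2 ratio in Ter119+ cells was 0.039 per listed fragment, and 0.155 to 0.169 with 1 library left out, when 5 libraries cannot reach a p under 0.0625. For the same reason 0 to 0 of the Ter119+ viewpoint pairs passed then. The SD of log2 O/E was 0.963 in WT and 0.857 in WT αYFP after division by the control viewpoints. Of 103 values for comparisons under other settings, 86 kept their direction and side of the threshold and 6 changed sign, and of 124 with a library left out 96 kept both and 9 changed sign. Counts of 5471 to 13704 far interactions limit the CD71+ comparisons. The cause of these changes was not tested.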
